A study of Mus musculus with 17 samples.

Results

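The p53 targets of the death arm are Fas, Pmaip1, Bbc3, Tnfrsf10b, Eda2r, Perp, Aen, Pidd1, Ei24 and Phlda3, 10 genes that p53 can switch on and that act in cell death. They were listed by name as known pro-death targets, not by a threshold on their values, but with earlier results of these data known. They are 10 of the 31438 genes in the tables. RNA was sequenced from whole cerebella of C57BL/6 mice at postnatal day 3, after the meninges had been taken off, as stranded libraries of poly-A selected RNA. The series asks what loss of Atr, a kinase that senses stalled replication forks, does to the growing cerebellum.

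All 4 groups carried Math1-Cre, a recombinase expressed in the granule neuron progenitors and a few other lineages of the hindbrain, so loxP-flanked genes are removed only in those cells and their descendants. The Bax/Bak controls were Math1-Cre with Bax-loxP/loxP and Bak--/- (4 libraries), and the Atr/Bax/Bak cerebella were Math1-Cre with Atr-loxP/loxP, with Bax-loxP/loxP and with Bak--/- (5 libraries). The p53 controls were Math1-Cre with p53-loxP/loxP (3 libraries), and the Atr/p53 cerebella were Math1-Cre with Atr-loxP/loxP and with p53-loxP/loxP (5 libraries, of which 4 were used). Bak was absent from every cell of both Bax/Bak groups, controls included, and no library combined intact p53 with intact Bax and Bak. Replicate numbers follow the order of the samples and pair nothing. The labels do not say that the libraries of a group came from separate mice, so each p measures the spread between these samples, which may be partly technical.

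The transcription factor p53 is stabilised after DNA damage and switches on genes that stop the cell cycle, repair DNA or kill the cell. Its death targets work at several points. Fas, Tnfrsf10b and Eda2r encode receptors of the tumour necrosis factor receptor family at the cell surface. Pmaip1 (Noxa) and Bbc3 (Puma) encode BH3-only proteins, which release Bax and Bak to permeabilise mitochondria. Pidd1 is the scaffold of the PIDDosome, which activates caspase-2, and Phlda3 is an inhibitor of Akt survival signalling. Perp is a tetraspan protein of the plasma membrane and of desmosomes, Aen is a nuclease, and Ei24 is a membrane protein of the endoplasmic reticulum. Granule neuron progenitors are dividing at this age and are known to be sensitive to replication stress.

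p53 binds DNA as a pair of 10-base elements, and RefSeq promoters (GRCm38.p6, 250 bases before to 50 bases after a start site) were searched on both strands for that response element because the members are defined as its targets. A promoter was found for 7 of the 10 members, in 10 windows. Allowing a spacer of up to 13 bases, 0 of the 7 genes held a pair with at most 1 mismatch, which 1.09% of all 32851 windows held. With up to 2 mismatches Aen held one, with a spacer of 7 bases, as did 10.1% of all windows. A single 10-base element without mismatch was in Aen and Ei24, which had the smallest fold changes of the 7, and in 8.36% of all windows. An element with at most 1 mismatch was in 6 of the 7 genes and in 70.0% of all windows. Members are counted by gene and these shares by window, so a gene with several windows had more chances of a match. No match says only that these letters are not in this window. The best matching element of each gene is given in capitals, 5′ to 3′ along the gene, with 10 bases on each side. It has 0 mismatches in Aen and Ei24, 1 in Fas, Bbc3, Eda2r and Pidd1, and 2 in Phlda3.
Fas, chr19:34290469-34290498 (+): gagaccagcaGAACTTTCTCgcaacccttg
Eda2r, chrX:97377407-97377436 (-): cccacagattAGGCTAGATCtaactttggg
Bbc3, chr7:16309486-16309515 (+): ctgcaagcccCGACTTGTCCccagccgcgg
Pidd1, chr7:141444055-141444084 (-): gaattcctacTGGCTAGCCCggaggggcgg
Phlda3, chr1:135765941-135765970 (+): gttttaagaaGGGGCAGCCCgcaggctatt
Aen, chr7:78895927-78895956 (+): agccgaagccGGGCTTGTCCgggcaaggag
Ei24, chr9:36797325-36797354 (-): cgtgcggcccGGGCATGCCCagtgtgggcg

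The 16 libraries used held 42987953 to 100659645 estimated counts, so that 1 count is at most 0.0233 CPM. CPM are counts scaled to library size, and levels between genes are compared only per length. The sum of Bak1 counts was 0.232 to 0.610 CPM in the 9 Bax/Bak libraries and 32.6 to 41.6 CPM in the 7 p53 libraries. Bax was at 24.7 to 36.7 CPM against 54.2 to 73.7 CPM, and Trp53, the gene of p53, was at 62.2 to 76.8 CPM in the Bax/Bak libraries against 29.3 to 45.5 CPM in the p53 libraries. The tissue also holds cells that Math1-Cre does not reach, and the source of the remaining Bax and Trp53 counts was not tested. Atr was at 38.4 to 48.0 CPM in the Bax/Bak controls and 35.8 to 43.5 CPM in the Atr/Bax/Bak cerebella, and at 36.3 to 38.2 and 33.7 to 40.2 CPM in the p53 controls and Atr/p53 cerebella. It passed the test in neither comparison (log2 change -0.10, edgeR adjusted p = 0.280, and 0.02, adjusted p = 0.977). The counts are per whole transcript, so the loss of the loxP-flanked exons of Atr was not measured, and the Atr label is not checked by them.

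Every death target was higher in the Atr/Bax/Bak cerebella than in the Bax/Bak controls, from 17.0-fold for Fas to 1.27-fold for Ei24. In edgeR's quasi-likelihood test 10 of 10 passed an adjusted p of 0.05 as higher, where 22.5% of the 17405 genes tested did so, and 44.5% of all genes passed in either direction. The libraries of the 2 groups did not overlap for 9 of the 10, the exception being Perp, against 17.1% of all genes. A rise of over 2-fold was seen in 7 members (3.65% of all genes) and of over 4-fold in 5 (0.965%). The median log2 change of the 10 was 2.02, beside 0.04 over all genes tested. Libraries were of whole tissue, so a change in the share of a cell type and a change in RNA per cell cannot be told apart, here or below.

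Of the death receptors, Fas (chr19:34290666-34327772, plus strand) had the largest rise. This receptor of Fas ligand assembles the complex that activates caspase-8. It was at 0.418, 0.315, 0.293 and 0.283 CPM in the 4 Bax/Bak controls and at 5.25, 6.23, 5.56, 5.70 and 4.44 CPM in the 5 Atr/Bax/Bak cerebella. The lowest library with deleted Atr was thus far above the highest control, and the log2 change was 4.09 with a standard error (SE) of 0.17 (95% interval 13.1-fold to 22.2-fold, adjusted p = 2.18e-07). The controls held only 18, 14, 21 and 28 estimated counts of Fas, so the fold rests on few control counts. The gene overlaps another on its own strand, Gm27818.

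Tnfrsf10b (chr14:69767472-69784411, plus strand), the mouse receptor of Trail, read 3.56, 3.48, 2.18 and 2.45 CPM in the controls and 12.6, 14.4, 14.7, 13.7 and 12.3 CPM in the Atr/Bax/Bak cerebella. It was 4.73-fold higher (log2 2.24, SE 0.16, adjusted p = 3.23e-06), and the groups did not overlap. Of its 31-base words 10.8% also occur in transcripts of other genes, so a part of its counts depends on how reads were divided. Eda2r (chrX:97333840-97377216, minus strand), the X-linked receptor of ectodysplasin A2, read 16.5, 17.5, 18.9 and 18.8 CPM against 70.0, 80.9, 88.4, 75.6 and 63.0 CPM. Its controls lay within a narrow band, and the rise was 4.26-fold (log2 2.09, SE 0.10, adjusted p = 3.60e-07).

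Both BH3-only genes rose, Noxa by the larger fold. Pmaip1 (Noxa; chr18:66458533-66465565, plus strand) read 4.02, 3.87, 4.39 and 4.42 CPM in the controls and 33.8, 52.8, 66.8, 50.5 and 41.8 CPM in the Atr/Bax/Bak cerebella. The rise was 11.9-fold (log2 3.57, SE 0.20, 95% interval 8.71-fold to 16.2-fold, adjusted p = 2.96e-06). Its induced libraries were also the most scattered of the 10 genes, with a coefficient of variation of 25.3%. Bbc3 (Puma; chr7:16308393-16318205, plus strand) read 25.3, 25.1, 30.4 and 30.5 CPM against 60.5, 70.5, 74.9, 61.0 and 69.8 CPM. It was 2.44-fold higher (log2 1.29, SE 0.09, adjusted p = 3.05e-06), from a control level that was higher per length than that of Noxa.

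Phlda3 (chr1:135766119-135769136, plus strand), which competes with Akt for membrane lipids, read 7.25, 7.45, 4.87 and 4.96 CPM in the controls and 28.5, 34.6, 34.1, 30.1 and 33.8 CPM after Atr deletion. The rise was 5.36-fold (log2 2.42, SE 0.15, adjusted p = 2.28e-06). Pidd1 (chr7:141438113-141444025, minus strand) read 8.90, 5.81, 10.1 and 7.69 CPM in the controls and 32.2, 30.6, 31.3, 30.7 and 30.1 CPM in the Atr/Bax/Bak cerebella. Its induced libraries were the closest to each other of any member, with a coefficient of variation of 2.60%, and the rise was 3.85-fold (log2 1.95, SE 0.13, adjusted p = 3.48e-06).

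Aen and Ei24, among the members with the highest control levels per length, rose by less than 2-fold. Aen (chr7:78895854-78911209, plus strand) read 46.7, 47.9, 43.5 and 41.1 CPM in the controls and 76.6, 87.5, 92.1, 88.3 and 82.4 CPM after Atr deletion, a 1.93-fold rise (log2 0.95, SE 0.06, adjusted p = 2.74e-06) that was close to that of Perp below. Ei24 (chr9:36779159-36797393, minus strand, overlapped on the plus strand by Gm26787) read 125, 131, 127 and 134 CPM against 150, 167, 171, 165 and 158 CPM. The groups of Ei24 did not overlap, but the rise was only 1.27-fold (log2 0.34, SE 0.05, adjusted p = 0.000171).

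**Figure D1:**
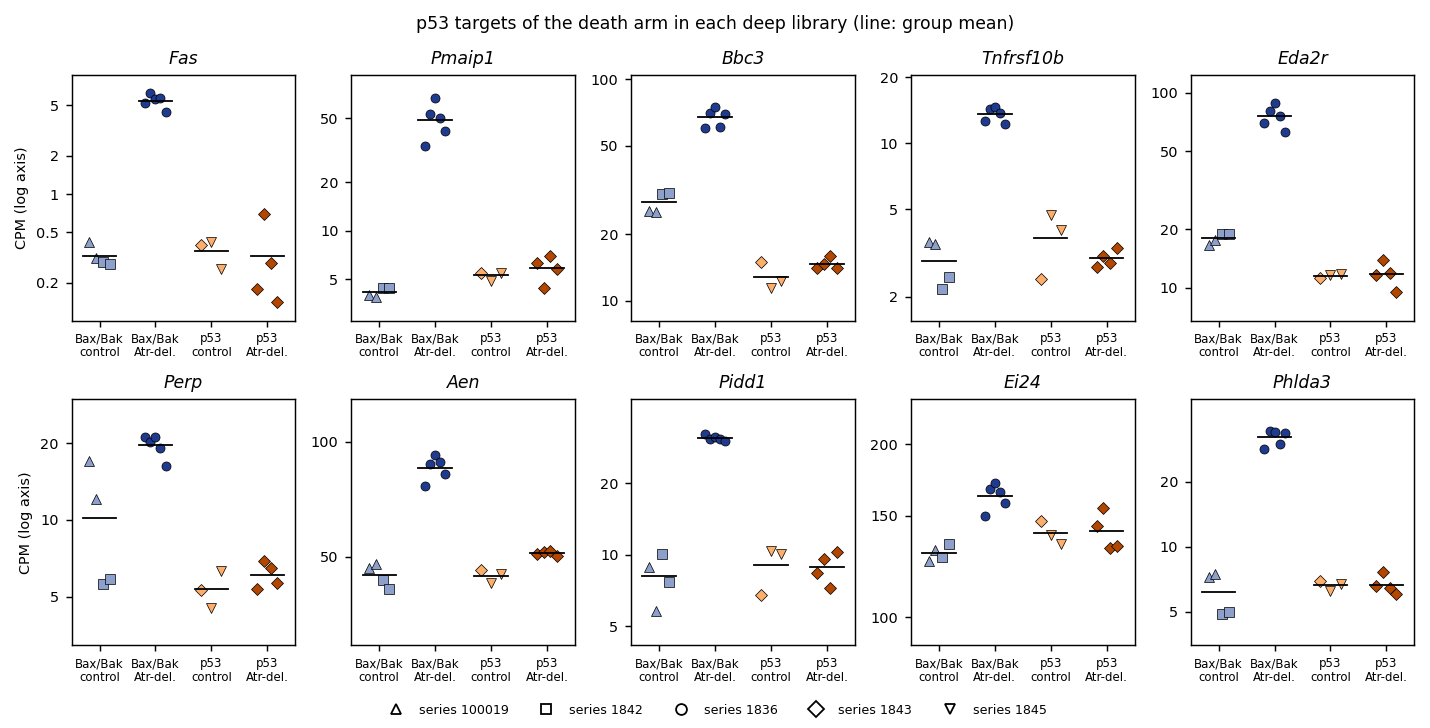
Level of each of the 10 genes in the 16 deep libraries, as CPM on a log axis, by genotype group. Points are libraries, their shape gives the number series in the sample name, and lines are group means. Perp is the only member whose Atr/Bax/Bak libraries overlap the Bax/Bak controls, and its controls split by number series.

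Perp (chr10:18845020-18857073, plus strand) was the least certain of the rises. It read 17.0, 12.1, 5.59 and 5.84 CPM in the Bax/Bak controls and 21.2, 20.1, 21.1, 19.2 and 16.2 CPM in the Atr/Bax/Bak cerebella, so the highest control lay above the lowest library with deleted Atr. The change was 1.97-fold (log2 0.98, 95% interval 0.22 to 1.73, adjusted p = 0.04). The high control pair, replicates 1 and 2, carries the number 100019 in its sample names and the low pair, replicates 3 and 4, the number 1842. Between these pairs Perp differed by a log2 of 1.35 (SE 0.17, adjusted p = 0.00325, where 5.6% of all genes were higher in the first pair and 8.15% differed in either direction), a comparison added after its values were seen. Phlda3 was also higher in the first pair (7.35 against 4.92 CPM, log2 0.58, adjusted p = 0.0419), and the other 8 members did not pass. Against the pair numbered 100019 alone, Perp was higher in the Atr/Bax/Bak cerebella by a log2 of 0.44 (adjusted p = 0.0347), and against the pair numbered 1842 alone by 1.74 (adjusted p = 5.12e-06). Leaving out any 1 of control replicates 2, 3 or 4, or any 1 of the 5 Atr/Bax/Bak replicates, ended the call (adjusted p = 0.0534 to 0.0858), and leaving out control replicate 1 kept it (log2 1.31, adjusted p = 0.00358).

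Markers of tissue next to the cerebellum moved with Perp among the controls. In control replicates 1 to 4, the summed level of 9 epithelial markers was 32.3, 23.2, 5.34 and 4.18 CPM, that of 7 meningeal markers 1500, 1220, 542 and 525 CPM, and that of 5 choroid plexus markers 3720, 1770, 62.4 and 63.1 CPM. In the Atr/Bax/Bak cerebella the choroid plexus sum was 2720, 105, 1110, 28.7 and 34.1 CPM, the epithelial sum 21.6, 11, 14.7, 10.6 and 10.3 CPM and the meningeal sum 736 to 892 CPM. Replicates 4 and 5 of the Atr/Bax/Bak cerebella, with 19.2 and 16.2 CPM of Perp, had choroid plexus sums below those of every control, and epithelial and meningeal sums (736 and 892 CPM) above those of control replicates 3 and 4. The part of these tissues in the level of Perp was not tested. All 5 Atr/Bax/Bak libraries carry the number 1836, which no control shares, so for every member of this background the Atr genotype cannot be told apart from the number series.

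Within the Atr/Bax/Bak group the members did not all rank the libraries alike. Replicate 3 was highest for 6 of the 10 genes (Pmaip1, Bbc3, Tnfrsf10b, Eda2r, Aen and Ei24). Replicate 1 was lowest for Pmaip1, Bbc3, Aen, Ei24 and Phlda3, and highest for Perp and Pidd1. Replicate 5 was lowest for the other 5, among them all 3 receptors.

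In the p53 background the same deletion of Atr was not followed by a rise that passed the test for any of the 10 genes. In edgeR 0 of 10 passed, and 0 in DESeq2 and in limma-voom, where edgeR called 8 of 17348 genes (0.0461%, all higher). The log2 changes of the members lay between -0.31 and 0.21, with a median of 0.02 beside 0.01 over all genes. At an unadjusted p of 0.05 there was 1 member, Aen, and 1142 genes in all. Aen read 46.1, 42.6 and 45.0 CPM in the p53 controls and 50.8, 51.6, 51.9 and 50.2 CPM in the Atr/p53 cerebella. Its groups did not overlap, as for 3.57% of genes in that direction, and its change was 1.16-fold (95% interval 1.03-fold to 1.30-fold, adjusted p = 0.661).

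The 95% intervals give the spread of each estimate under a fit with genotype alone. p53 control replicate 1 carries the number 1843, as all 4 Atr/p53 libraries do, and p53 control replicates 2 and 3 carry 1845. With the number series as a covariate, the Atr effect rested on p53 control replicate 1 alone, so that fit could hardly call a member. In it Tnfrsf10b went from a log2 of -0.31 to 0.33 (SE 0.24) and Pidd1 from -0.02 to 0.41 (SE 0.22), past the upper ends of their intervals. Pmaip1 read 5.49, 4.87 and 5.49 CPM in the p53 controls and 6.30, 4.39, 6.94 and 5.79 CPM in the Atr/p53 cerebella, with an interval of 0.843-fold to 1.47-fold. Fas read 0.4, 0.418 and 0.255 CPM against 0.179, 0.699, 0.288 and 0.141 CPM. Without Atr/p53 replicate 2, the highest of these, the log2 change of Fas went from -0.13 to -0.81 (adjusted p = 0.712). With so few counts the interval of Fas was wide, from 0.376-fold to 2.21-fold, but its upper end was still below the 13.1-fold lower end found without Bax and Bak. Bbc3 read 14.9, 11.4 and 12.3 CPM against 14.1, 14.7, 16 and 14 CPM (0.951-fold to 1.39-fold). Its 2 groups overlapped, as did those of the other 8 members besides Aen.

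The remaining receptors and signalling members did not pass either. Tnfrsf10b read 2.40, 4.73 and 4.02 CPM in the p53 controls and 2.74, 3.06, 2.85 and 3.32 CPM in the Atr/p53 cerebella (interval 0.563-fold to 1.16-fold). The lowest of its controls is the one that shares the number 1843 with the cerebella with deleted Atr. Eda2r read 11.2, 11.7 and 11.8 CPM against 11.6, 13.9, 11.9 and 9.52 CPM (0.824-fold to 1.25-fold). Phlda3 read 6.90, 6.26 and 6.74 CPM against 6.55, 7.64, 6.44 and 6.02 CPM (0.819-fold to 1.24-fold). For the last 3 genes the intervals were 0.734-fold to 1.32-fold (Pidd1), 0.880-fold to 1.48-fold (Perp) and 0.892-fold to 1.15-fold (Ei24). A p that misses the threshold does not show that these genes were unaffected.

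**Figure D2:**
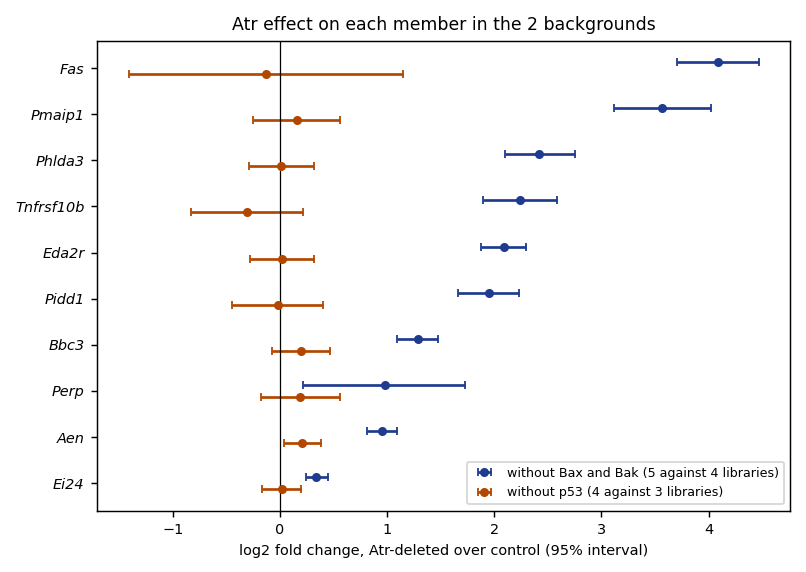
Log2 fold change of each gene with its 95% interval, Atr-deleted over control, without Bax and Bak and without p53. Without Bax and Bak every interval lies above 0, with changes from 0.34 for Ei24 to 4.09 for Fas, and without p53 every interval but that of Aen includes 0.

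An interaction term over all 16 libraries compared the Atr effects of both backgrounds, and it shares its samples with both effects above. It was positive and passed the test for 9 of 10 members, where 8.08% of 18166 genes did so in that direction and 16.2% in either. On the log2 scale the difference was 4.21 for Fas (SE 0.53, adjusted p = 0.0001, and 4.90 without Atr/p53 replicate 2), 3.41 for Pmaip1 (SE 0.25, adjusted p = 1.13e-06), 2.54 for Tnfrsf10b, 2.40 for Phlda3, 2.06 for Eda2r, 1.96 for Pidd1, 1.08 for Bbc3 and 0.73 for Aen. For Ei24 it was 0.32 (SE 0.09, adjusted p = 0.0201), and the call ended when any 1 of Bax/Bak control replicates 1, 2 or 3, or of Atr/Bax/Bak replicates 2, 3, 4 or 5, was left out (adjusted p = 0.0553 to 0.0723). Perp did not pass (0.78, 95% interval -0.05 to 1.61, adjusted p = 0.195), and passed only without Bax/Bak control replicate 1 (1.11, adjusted p = 0.0211). The backgrounds were also deposited as separate tables and share no number series. Background, table and number series thus cannot be told apart, here or between the controls or the Atr-deleted groups below.

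Where Atr was intact, 3 of the death targets were higher in the Bax/Bak controls than in the p53 controls, at 8.71% of 18166 genes higher and 18.0% in either direction. These control libraries also enter the Atr effects. Bbc3 was 2.17-fold higher (27.8 ± 3.01 CPM, SD, n = 4, against 12.9 ± 1.85 CPM, n = 3, adjusted p = 1.06e-05), with no overlap, as for 15.2% of genes in that direction. Eda2r was 1.55-fold higher (17.9 ± 1.16 against 11.6 ± 0.331 CPM, adjusted p = 0.00259), again with no overlap. Perp was 1.87-fold higher (10.1 ± 5.48 against 5.37 ± 0.893 CPM, adjusted p = 0.0481), but the groups overlapped and the call ended without any 1 of Bax/Bak control replicates 1 or 2 or of the 3 p53 controls (adjusted p = 0.0773 to 0.156). The other 7 did not pass, and 0 passed as lower (9.3% of genes). Pmaip1 was lower in all 4 Bax/Bak controls than in the p53 controls, as was Ei24, by a log2 of -0.34 (adjusted p = 0.229) and -0.12 (adjusted p = 0.232), a lack of overlap that 16.2% of genes showed in that direction. Tnfrsf10b had a log2 of -0.36 (adjusted p = 0.235) and passed as lower only without p53 control replicate 1 (-0.60, adjusted p = 0.0399). Under upper-quartile scaling the share of called genes that were higher moved from 48.3% to 37.3%, and Perp lost its call (adjusted p = 0.0570).

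Where Atr was deleted, all 10 members were higher in the Bax/Bak background than in the p53 background, at 24.3% of genes higher and 47.2% in either direction. The groups did not overlap for 9 of the 10 (21.1% of genes). The log2 differences were 4.06 for Fas, 3.07 for Pmaip1, 2.69 for Eda2r, 2.27 for Phlda3, 2.20 for Bbc3, 2.18 for Tnfrsf10b, 1.80 for Pidd1, 1.68 for Perp and 0.74 for Aen. Ei24 had the smallest (0.20, adjusted p = 0.00855), its groups overlapped, and its call ended without Atr/Bax/Bak replicate 3 (adjusted p = 0.0508). Bbc3, Eda2r and Perp had already differed in the same direction between the controls, by 1.11, 0.63 and 0.91. This comparison uses the same Atr-deleted libraries as those above.

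Per length, on the TPM scale, the members spanned a wide range and the order was only partly kept. In the Bax/Bak controls Ei24 was the most abundant at 135 ± 2.31 TPM (SD, n = 4), followed by Bbc3 at 41.5 ± 5.38 and Aen at 40.3 ± 2.59, which did not differ beyond their spread. Perp (11.6 ± 6.35), Eda2r (10.1 ± 0.657) and Phlda3 (10 ± 2.37) were likewise within their spread of each other, then came Pidd1 at 5.96 ± 1.29, Pmaip1 at 3.43 ± 0.223, Tnfrsf10b at 2.05 ± 0.5 and Fas at 0.539 ± 0.105 TPM. After Atr deletion Ei24 (181 ± 6.22, n = 5), Bbc3 (95.9 ± 6.64) and Aen (78.3 ± 5.01) stayed on top and Tnfrsf10b (9.87 ± 0.662) and Fas (8.83 ± 1.30) at the bottom. Between them the order of the means was Phlda3 (55.9 ± 5.50), Eda2r (43.7 ± 5.19), Pmaip1 (41.7 ± 9.94), Pidd1 (24.9 ± 0.606) and Perp (23.2 ± 2.34), so that Noxa had passed Pidd1 and Perp. Eda2r and Pmaip1 were within their spread of each other, as were Pidd1 and Perp.

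Fas, with the largest fold change without Bax and Bak, thus had the lowest mean level in all 4 groups, although it and Tnfrsf10b were within their spread of each other after Atr deletion without Bax and Bak. The summed level of the 10 genes was 260 ± 4.74 TPM in the Bax/Bak controls and 564 ± 34.1 TPM in the Atr/Bax/Bak cerebella, and 228 ± 4.09 and 226 ± 19.2 TPM in the p53 controls and the Atr/p53 cerebella. Ei24 alone made up 51.8% of the sum in the Bax/Bak controls and 32.2% after Atr deletion. In the p53 controls Aen (mean 37.7 TPM) stood above Bbc3 (mean 17.9 TPM), the reverse of their order after Atr deletion without Bax and Bak.

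**Figure D3:**
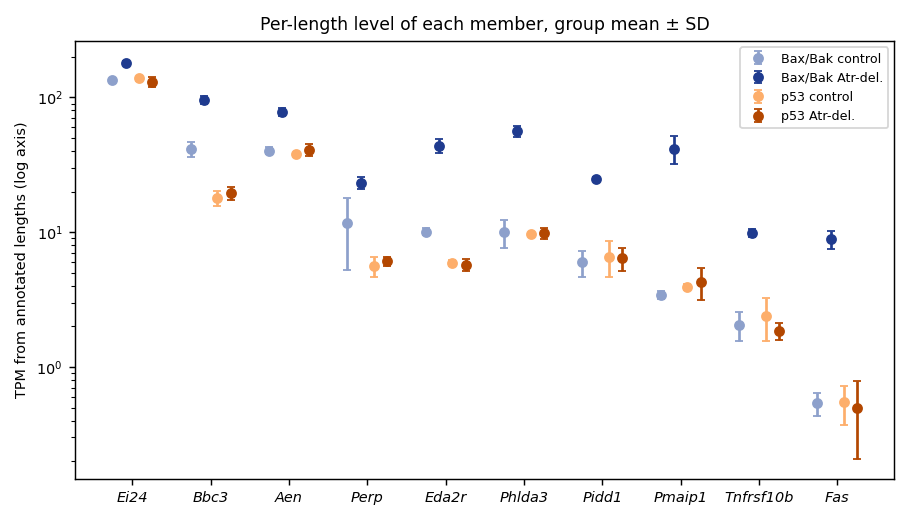
Per-length level of each gene as TPM from annotated transcript lengths, on a log axis, as group mean with SD. The dark blue points of the Atr/Bax/Bak cerebella stand above the other 3 groups for every gene but reach only 8.83 TPM for Fas, against 181 TPM for Ei24.

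The annotated transcripts that carry the counts were mostly protein-coding. Among 51843 transcripts tested without Bax and Bak, 5.78% rose and 9.87% fell. Fas-201, which held 94.9% of Fas in the controls and 98.0% after Atr deletion, rose by a log2 of 4.06 (adjusted p = 2.36e-05). Phlda3-201 rose by 2.32, Eda2r-201 by 2.05 and its retained-intron form Eda2r-203 by 1.87. The 3 larger forms of Aen rose as well, Aen-201 by 0.72, Aen-203 by 1.01 and the processed transcript Aen-204 by 0.91, and Ei24-201 rose by 0.26 (adjusted p = 0.0133). Perp-201, the single transcript of Perp, did not pass at this level (0.90, adjusted p = 0.0859). Pmaip1 and Tnfrsf10b have 1 annotated transcript each, which rose by 3.51 and 2.17. Without p53 none of the named transcripts passed, where 0.00383% of 52260 transcripts were higher and 0.00574% lower.

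In the Atr/Bax/Bak cerebella the mean share outside coding transcripts was lower for Bbc3 and higher for Pidd1 than in the Bax/Bak controls. The coding Bbc3-201 rose by a log2 of 1.37 (SE 0.11, adjusted p = 0.000127), while the retained-intron form Bbc3-203 did not pass (-0.22, SE 0.52, adjusted p = 0.818). The share of Bbc3 counts outside coding transcripts was 12.4, 11.4, 13 and 16.9% in the Bax/Bak controls and 6.32, 4.83, 3.44, 10.7 and 0.806% in the Atr/Bax/Bak cerebella, with no overlap. For Pidd1 the coding Pidd1-201 rose by 1.25 (SE 0.22, adjusted p = 0.00419) and the retained-intron forms Pidd1-206 and Pidd1-208 by 2.49 (SE 0.34, adjusted p = 0.00128) and 2.18 (SE 0.35, adjusted p = 0.00271). Its share outside coding transcripts was 44.1, 51.7, 60.0 and 47.2% in the controls and 76.9, 75.4, 58.8, 65.8 and 65.5% after Atr deletion, where the lowest library lay just below the highest control. In the p53 background that share of Pidd1 was 56.3 to 75.6% in the controls and 46.1 to 71.2% in the Atr/p53 cerebella, so high shares were not limited to the induced libraries. The difference between shares was not tested, and a lack of overlap in shares was not counted over all genes. The forms share most of their sequence, so their split rests on the estimation.

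**Figure D4:**
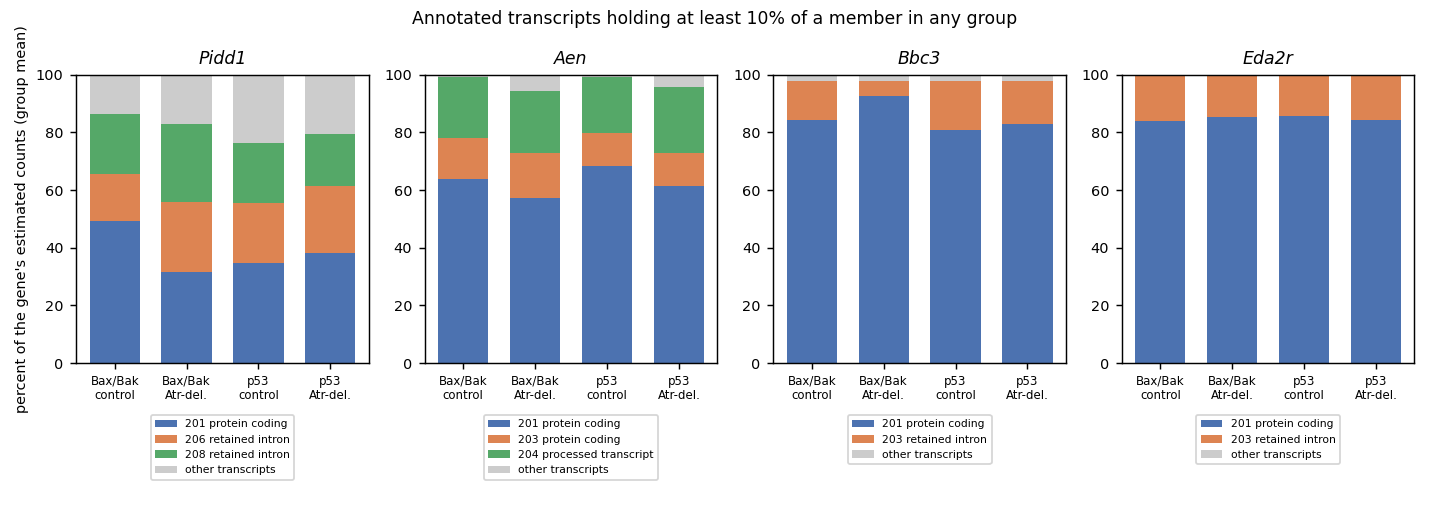
Mean percent of each gene's estimated counts held by its annotated transcripts in the 4 groups, for Pidd1, Aen, Bbc3 and Eda2r. The coding transcript of Pidd1 falls from 49.3% to 31.5% of its counts between the Bax/Bak controls and the Atr/Bax/Bak cerebella, and that of Bbc3 goes from 84.2% to 92.5%.

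Among 13 ligands, adaptors and caspases of the death receptors 2 rose, 3 fell and 8 did not pass without Bax and Bak, with a median log2 of 0.00 beside 0.04 over all genes. Over all genes tested 22.5% were higher and 44.5% passed in either direction, which is the background for this and the next lists. The adaptor Traf2 fell by 0.29 on the log2 scale (adjusted p = 0.00267) and the caspase-8 inhibitor Cflar rose by 0.17 (adjusted p = 0.0202). Fasl, the ligand of Fas, was at 0.335 ± 0.0922 CPM in the controls and 0.219 ± 0.133 CPM in the Atr/Bax/Bak cerebella and did not pass (adjusted p = 0.342), nor did Casp8 (log2 -0.22, adjusted p = 0.0754). Fasl and Casp8 are named beyond the rule, as the partners closest to Fas, with their values seen.

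Among 16 Bcl-2 family members and partners of Noxa and Puma, 4 rose, 6 fell and 6 did not pass, with a median of -0.08, so that the share that rose was near that of all genes. Bcl2l11 (Bim), another BH3-only gene, rose by a log2 of 0.67 (adjusted p = 6.32e-05), Hrk by 0.55 and Apaf1, the core of the apoptosome, by 0.40. Bok, a relative of Bax and Bak that was not deleted, fell by 0.77 (adjusted p = 5.82e-06). Of 3 partners of Pidd1, Casp2 fell by 0.23 (adjusted p = 0.00509) and the other 2 did not pass. Of 5 Akt kinases and Phlda3 relatives 4 were tested, and 3 fell, among them Akt2 by 0.32 and Akt1 by 0.13. Of 7 relatives of Perp and Aen, Isg20 rose by 1.24 and Emp2 by 0.92, and Isg20l2 fell by 0.37, with 4 not passing.

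Of 32 p53 targets that are not members, 21 rose, 3 fell and 8 did not pass, with a median of 0.40. This list was not limited to targets without a role in cell death. The smallest p values were those of Ptp4a3 (log2 1.34), Sesn2 (1.59), Ano3 (1.66) and Cdkn1a (2.26), the cell cycle inhibitor p21, which went from 54.7 ± 5.78 to 259 ± 25.7 CPM. Among 10 genes for p53 and its regulators, Trp73, a relative of p53, rose by 2.25 (adjusted p = 3.34e-05) while Chek1, Atm and Chek2, kinases of the damage response, fell by 0.93, 0.45 and 0.40. Counted over the whole list 2 rose, 5 fell and 3 did not pass, and Trp53 itself did not pass (0.03, adjusted p = 0.735). These counts are a description of the lists, with no test of the lists themselves.

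Without p53, 0 genes of any of these 7 lists passed in edgeR, where only 8 of 17348 genes (0.0461%) passed in all. In 6 of the lists the smallest p belonged to Tnfsf10 (log2 -0.44, adjusted p = 0.837), Bcl2 (-0.23, 0.725), Cradd (-0.21, 0.840), Emp1 (0.37, 0.352), Gdf15 (4.54, 0.121) and Chek1 (0.31, 0.541). Gdf15, a secreted stress factor, was at 0.0397 ± 0.0569 CPM (SD, n = 3) in the p53 controls and 0.947 ± 0.0793 CPM (n = 4) in the Atr/p53 cerebella, so its fold rests on very few control counts. The interaction called 8.08% of 18166 genes as higher and 16.2% in either direction. It called 15 of the 32 other p53 targets as more induced without Bax and Bak, among them Cdkn1a (2.26), Dcxr (2.50), Ptp4a3 (1.35) and Zmat3 (1.22). It called Trp73 (2.50), Bcl2l11 (0.92) and Emp2 (1.02) in the same direction, and Chek1 (-1.25), Chek2 (-0.52), Bok (-0.50), Isg20l2 (-0.36), Diablo (-0.34) and Mcl1 (-0.32) in the other. In the PIDDosome and Akt lists 0 passed. Between the controls Hrk (0.82), Trp73 (1.01) and Sesn2 (0.80) were higher without Bax and Bak, and Cdkn1a was lower (-0.47, adjusted p = 0.00481). In the order in which the 7 lists were given, 3, 4, 0, 0, 2, 10 and 3 genes were higher in the Bax/Bak controls (8.71% of all genes) and 2, 3, 0, 0, 0, 4 and 1 were lower (9.3%). Among the Atr-deleted cerebella 3, 5, 1, 0, 2, 23 and 3 were higher without Bax and Bak and 4, 6, 0, 1, 1, 3 and 2 were lower, where 24.3% of all genes were higher and 47.2% passed in either direction. In both comparisons the lower Bcl-2 genes include Bax and Bak1 and the higher regulators include Trp53, which the genotypes themselves remove on one side.

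**Figure D5:**
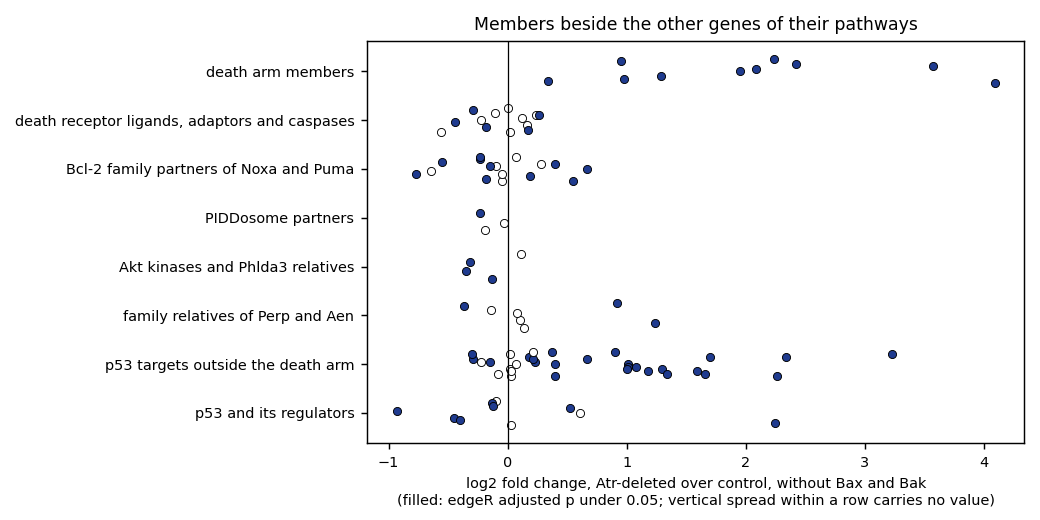
Log2 fold change of the 10 death targets and of the genes in 7 other lists, Atr/Bax/Bak cerebella over Bax/Bak controls. The list named as outside the death arm holds p53 targets that are not members. Filled points passed edgeR's adjusted p of 0.05. The death targets lie at 0.34 and above, while the lists of their partners are spread around 0.

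Cell type markers moved in the same comparison as the members, in which 22.5% of all genes were higher and 44.5% passed in either direction. Without Bax and Bak, 10 of 12 markers of granule progenitors fell and 1 rose (summed level 3100 to 3660 CPM in the controls, 2220 to 2540 CPM in the Atr/Bax/Bak cerebella), and 6 of 9 markers of young granule neurons fell (3830 to 4540 against 2750 to 3090 CPM). Markers of cells that Math1-Cre does not target rose in part: 7 of 8 for Purkinje cells (2290 to 2670 against 2850 to 4050 CPM), 8 of 9 for astrocytes and Bergmann glia with 1 lower (3960 to 4450 against 5240 to 6630 CPM), 6 of 8 for the oligodendrocyte lineage with 1 lower (697 to 1190 against 1140 to 2440 CPM) and 8 of 10 for microglia (95.8 to 132 against 142 to 178 CPM). The defining progenitor marker Atoh1 was present in all 4 groups, at a mean of 17.8 to 28.7 CPM. In the endothelial list 3 of 9 rose (482 to 628 against 600 to 679 CPM) and in the epithelial list 2 of 8 tested (4.18 to 32.3 against 10.3 to 21.6 CPM). For leukocytes (4.16 to 8.07 against 4.03 to 6.30 CPM), meninges (525 to 1500 against 736 to 892 CPM), choroid plexus (62.4 to 3720 against 28.7 to 2720 CPM) and erythroid cells (283 to 782 against 348 to 501 CPM) 0 passed in either direction. No marker was at 0 in either Bax/Bak group. The part of these shifts in the members' levels was not tested, and without p53 0 markers of any list passed, where 0.0461% of all genes passed. In that background the progenitor sum was 2750 to 2930 CPM in the controls and 2030 to 2720 CPM in the Atr/p53 cerebella. Krt5 was at 0 in the p53 controls and Cd3e and Nkg7 were at 0 in the Atr/p53 cerebella.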

How the data were processed

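For each of the 2 backgrounds the authors deposited 1 table of estimated counts, with a row per Ensembl transcript and a column per lane. These expected counts need not be whole, and no normalization is recorded for them. Per the submitters' processing notes, the tools included kallisto 0.42.4 and edgeR, and the builds were GRCm38 and mm9, with no role stated. Such estimates divide reads among transcripts of similar sequence, so shares between forms of a gene are less certain than gene sums.

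Lanes were added, and gene sums were taken over the transcripts that GENCODE M21 (GRCm38) assigns to each gene, the source of names and coordinates. Of 94080 transcripts 92284 matched, and those without a match held 0.78% to 1.04% of counts. Sums were rounded. The shallow library, Atr/p53 replicate 3, held 13601 counts in 2 identical lanes and was left out. In it Ei24 had 5 counts, Aen 1 and the other 8 members 0, each of which allows up to 3.

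Models were fitted in R 4.3.3 by edgeR 4.0.16, using TMM scaling, its default filter by group, robust quasi-likelihood F-tests and Benjamini-Hochberg adjustment over all features at 0.05. They were also run on simulated counts that held no differences of number series or tissue, so that run does not cover these. Each Atr effect was fitted on its own 2 groups, and the other 3 of the 5 comparisons on all 16 libraries. Intervals are at 95%. DESeq2 1.42.0 and limma 3.58.1 served as alternatives. CPM and SD are on the joint TMM scale, and TPM uses annotated lengths.

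The members and the lists were chosen with earlier results of these data known. All members are described. From the other lists the text names, per comparison, up to 4 genes past the threshold with the smallest p, or the gene of smallest p, and not every such gene is printed. Named transcripts hold at least 10% of a gene in some group. Some genes that this rule names are not reported here.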

Additional observations from a re-analysis of the deposited data

Results flagged for a closer look

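The Atr effect differed between the backgrounds, by the interaction test in edgeR, for 9 of the 10 genes. Over all 18166 genes tested 8.08% passed as higher and 16.2% in either direction. The effect without Bax and Bak exceeded that without p53 by a log2 of 4.21 for Fas, 3.41 for Pmaip1, 2.54 for Tnfrsf10b, 2.40 for Phlda3, 2.06 for Eda2r, 1.96 for Pidd1, 1.08 for Bbc3, 0.73 for Aen and 0.32 for Ei24. In each case 5 of 5 Atr-deleted libraries of the Bax/Bak background lay above every control of that background, as for 17.1% of all genes. Of 30 groups of 4 or 5 libraries, 0 held a value that stood apart from the rest by Dixon's ratio. With 4 or 5 values this ratio has little power. It flagged neither the pair of high Perp controls nor Fas in Atr/p53 replicate 2, so it does not show that no library weighs on a group.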

How the results depend on the processing

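No paired analysis was possible because the labels give no replicate numbers that pair libraries of different groups. Counts were taken over 99 settings, with those of the promoter search and of the named transcripts included. The count of members called was 9 to 10 for the Atr effect without Bax and Bak, 0 for that without p53, 8 to 9 for the interaction, 2 to 3 between the controls and 9 to 10 between the Atr-deleted groups. Each of these counts moved by 1 at most, through Perp, Ei24 or Tnfrsf10b. Of 959 changes of single members under the alternatives, 927 stayed on the same side of the threshold, 30 lost their call and 2 gained it, and 0 called changes turned their direction. The 30 were 19 of Perp and 11 of Ei24. Of 40 levels per length 20 moved by more than 1 SD when 200 bases were taken off each length, without a change of order among the 3 highest or the 3 lowest members. The count of promoters with a response element was 0, and 1 (Aen) with up to 2 mismatches. Named transcripts numbered 17 to 18.

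The number of all genes called without p53 depended on the tool. It was 8 in edgeR, 128 in DESeq2, 4 in limma-voom and 70 in a joint fit of 16 libraries. It was 23 with the shallow library kept, 14 without a filter, 2 at a threshold of 0.01 and 2 to 13 with 1 library left out. None of these fits called a member. A filter at a mean of 1 CPM removed Fas from that fit, so it gave no value there. At the threshold of 0.01 the interaction called 1175 genes and not 2936, and the control comparison 1291 and not 3272. The interaction called 1823 and 1629 genes without p53 control replicates 2 and 3, and the control comparison 2062 and 1883 without these and 2120 without Bax/Bak control replicate 3. Depth limits Fas most, at 10 to 45 counts in the 7 libraries without p53 and 14 to 28 in the Bax/Bak controls.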
